A study of Homo sapiens with 8 samples.

Results

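Small nucleolar RNA host genes carry small nucleolar RNAs (snoRNAs) in their introns, and their promoters were examined here for G-quadruplexes (G4s). The genes were chosen by name, as every gene of the GENCODE annotation on hg19 whose symbol is SNHG followed by a number, together with GAS5 and ZFAS1. This gave 30 genes of 64449 on chromosomes 1 to 22, X and Y, and all 30 are annotated as long non-coding RNA (lncRNA) genes. The RefSeq annotation places at least 1 snoRNA or scaRNA gene (a related RNA of Cajal bodies) inside 29 of them, all but SNHG27, with a median of 1 and up to 84 at SNHG14. At SNHG27 the GENCODE annotation does place a snoRNA gene, SNORA70, in an intron. G4 chromatin immunoprecipitation and sequencing (G4 ChIP-seq) was carried out with the G4-binding antibody BG4 on cross-linked, RNase-treated chromatin of untreated K562 (chronic myelogenous leukemia) and HepG2 (hepatocellular carcinoma) cells. The sample list names 3 G4 ChIP libraries and 1 input library for each line. The deposited lists merge 8 replicates of K562 and 9 of HepG2: the high-confidence list keeps stretches that were peaks in 5 or more K562 or 6 or more HepG2 replicates, and the lower-confidence list asks for 2. The paper describes 3 independent experiments per line, each with 2 to 3 technical replicates, so these replicates are not all independent. The 2 replicates behind a lower-confidence interval can thus come from 1 experiment. Intervals come without read counts, heights or replicate numbers, so depth and replicate spread are unknown, differences between the lines have no replicate check, and neither line could be checked against marker genes.

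As background, a host gene transcript is spliced, and the intron that is released is trimmed to a snoRNA. Box C/D snoRNAs guide the methylation of ribosomal RNA, box H/ACA snoRNAs guide its pseudouridylation, and the related scaRNAs act on spliceosomal RNAs. Many host genes are transcribed in all dividing cells, and the spliced exons of several are degraded soon after export. G4s are stacked structures of 4-stranded DNA that form in G-rich sequence and are found at many active promoters.

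A gene was scored in each line by whether an interval shared at least 1 bp with the 1 kb on either side of any of its annotated transcription start sites (TSSs). It was called high where an interval of the high-confidence list did so, lower where only the lower-confidence list gave one, and none otherwise. The sequence of each interval was read for G4 motifs, meaning 4 stretches of 3 or more G with 1 to 7 bases between neighbouring stretches, on the plus or the minus strand. Such motifs lay in high-confidence intervals of only 4 of the 30 genes, SNHG4, SNHG26, SNHG31 and GAS5. For each of them the motif with the most bases in G stretches is shown, from the GRCh37 (hg19) genome and read 5′ to 3′ on the strand that carries the G bases, with stretches of 3 or more G in capitals. SNHG31 has 2 motifs of equal rank, which lie on the plus strand at chr2:215674427-215674454 and chr2:215674775-215674807. The SNHG4 motif is on the minus strand at chr5:138609772-138609799, the GAS5 motif on the plus strand at chr1:173837408-173837427 and the SNHG26 motif on the plus strand at chr7:22893745-22893785.
SNHG4: GGGGaaaGGGcagccGGGagccgaGGGG
SNHG31, distal: GGGGcGGGGcgcgcGGGGaGGGGcGGGG
SNHG31, proximal: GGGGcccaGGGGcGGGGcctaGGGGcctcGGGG
GAS5: GGGGatGGGGGaaGGGGGGG
SNHG26: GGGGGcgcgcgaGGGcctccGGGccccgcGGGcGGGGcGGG

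The last 7 bases of the GAS5 motif count as 2 stretches of G with a G between them, so that only 3 blocks of capitals are seen. The SNHG26 and SNHG31 motifs lie on the strand of the gene, whereas those of SNHG4 and GAS5 lie on the opposite strand. The other high-confidence intervals held no complete motif, and 3 of them are shown whole because they belong to genes that were high in both lines, with the most bases in common among intervals of at most 300 bases outside annotated UTRs. These are the HepG2 interval at SNHG5 (chr6:86388465-86388716, 252 bases), the HepG2 interval at SNHG12 (chr1:28908387-28908538, 152 bases) and the K562 interval at SNHG10 (chr14:96001236-96001369, 134 bases). All 3 genes are on the minus strand, and the sequences are given on that strand with stretches of 3 or more G or of 3 or more C in capitals.
SNHG5: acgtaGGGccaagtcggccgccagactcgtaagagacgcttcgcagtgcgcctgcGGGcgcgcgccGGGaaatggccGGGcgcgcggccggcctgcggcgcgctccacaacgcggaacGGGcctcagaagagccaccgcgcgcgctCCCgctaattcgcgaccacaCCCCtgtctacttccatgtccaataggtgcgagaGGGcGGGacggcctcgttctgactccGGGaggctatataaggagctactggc
SNHG12: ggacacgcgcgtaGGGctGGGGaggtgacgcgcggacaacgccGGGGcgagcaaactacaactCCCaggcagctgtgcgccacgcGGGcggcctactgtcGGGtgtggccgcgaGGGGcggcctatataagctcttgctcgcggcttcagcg
SNHG10: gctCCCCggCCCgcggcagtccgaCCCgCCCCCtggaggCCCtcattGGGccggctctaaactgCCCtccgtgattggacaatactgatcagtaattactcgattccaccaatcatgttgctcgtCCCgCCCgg

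The SNHG5 sequence has 8 stretches of G and the SNHG12 sequence 6, but the bases between them are too many for the motif. In the SNHG10 sequence 8 stretches of C stand against 1 of G, which puts its G stretches on the other strand. The SNHG5 and SNHG12 intervals both contain, near their 3′ ends, the letters TATATAA, which have the form of a TATA box. This word, looked for on the strand of the gene in the 50 bases before any TSS after it had been noticed here, was present at 3 of the 30 genes (10.0%), SNHG5, SNHG12 and ZFAS1. It was present at 684 of all 64449 genes (1.06%) and at 4 of 81 cytosolic ribosomal protein genes (4.94%). Its first base lay 17 bp before the canonical TSS of SNHG5 and 31 bp before that of ZFAS1, and 25 to 50 bp before 6 TSSs of SNHG12. The search was prompted by the sequences of SNHG5 and SNHG12, and more TSSs per gene give more sequence to search, so the shares are not like for like. At the canonical TSS alone the word was found at 2 of the 30 host genes (6.67%), 0.697% of all genes and 4 of the 81 ribosomal protein genes.

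High-confidence intervals were found at most of the host genes. In K562, 19 of 30 genes (63.3%, 95% Wilson interval 45.5 to 78.1) were high, against 14.8% of all genes. In HepG2, 17 of 30 (56.7%, 39.2 to 72.6) were high, against 12.7% of all genes. Both lines called 15 genes high (50%), where the share of all genes was 9.8%. With the lower-confidence lists, intervals reached 24 genes in K562 (80.0%) and 23 in HepG2 (76.7%), beside 21.4% and 22.1% of all genes. These intervals of shares cover the counting of genes only, and genes are not replicates of a cell line.

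The number of TSSs sets how much sequence is searched, and the host genes have many. Their median was 9.5 TSSs per gene, against 1 for all genes and 1 for lncRNA genes. When only the canonical TSS of each gene was used, 18 host genes (60%) were high in K562 and 17 (56.7%) in HepG2, with 13.6% and 11.6% of all genes. Among the 10 host genes with 4 to 9 TSSs, 7 were high in each line, whereas 34.8% and 30.1% of all genes with that many TSSs were. Among the 15 with 10 or more TSSs, 10 were high in K562 and 6 in HepG2. The HepG2 share of this last set, 40.0%, was close to the 42.1% of all genes with 10 or more TSSs, and the K562 share, 66.7%, stood beside 48.0%. Among lncRNA genes alone, 22.9% of those with 10 or more TSSs were high in K562 and 18.4% in HepG2. With 4 to 9 TSSs, 16.8% and 15.6% of lncRNA genes were. The other 5 host genes had 2 to 3 TSSs, and 2 were high in K562 and 4 in HepG2. Of all genes with 2 to 3 TSSs, 17.8% and 14.4% were high.

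The host genes can be set beside other groups by their counts. Of 18702 lncRNA genes, 10.5% were high in K562 and 8.87% in HepG2, and of 20163 protein-coding genes 35.7% and 30.7% were. Other lncRNA genes that enclose a snoRNA or scaRNA gene in the RefSeq annotation numbered 53, and 13 of them (24.5%, 14.9 to 37.6) were high in K562 and 16 (30.2%, 19.5 to 43.5) in HepG2. Of 543 protein-coding genes that enclose one, 49.2% were high in K562 and 44.2% in HepG2. The 81 cytosolic ribosomal protein genes, many of which host snoRNAs, were high in 39 cases (48.1%, 37.6 to 58.9) for K562 and in 45 (55.6%, 44.7 to 65.9) for HepG2. Wilson intervals of the 30 host genes overlap those of the ribosomal protein genes and of the 543 protein-coding hosts in both lines. Those of the 53 other lncRNA hosts are overlapped in HepG2 but not in K562. The 85 other lncRNA hosts of the GENCODE annotation on hg19 were overlapped in neither line (K562 15.8 to 33.6, HepG2 12.9 to 29.7). Median TSSs per gene were 4 for the 53, 9 for the 543 and 8 for the 81, against 9.5 for the 30. At the canonical TSS alone, K562 shares were 20.8%, 46.6% and 46.9% in the same order, and HepG2 shares 26.4%, 40.7% and 54.3%. The 30 host genes then stood at 60% and 56.7%.

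**Figure D1:**
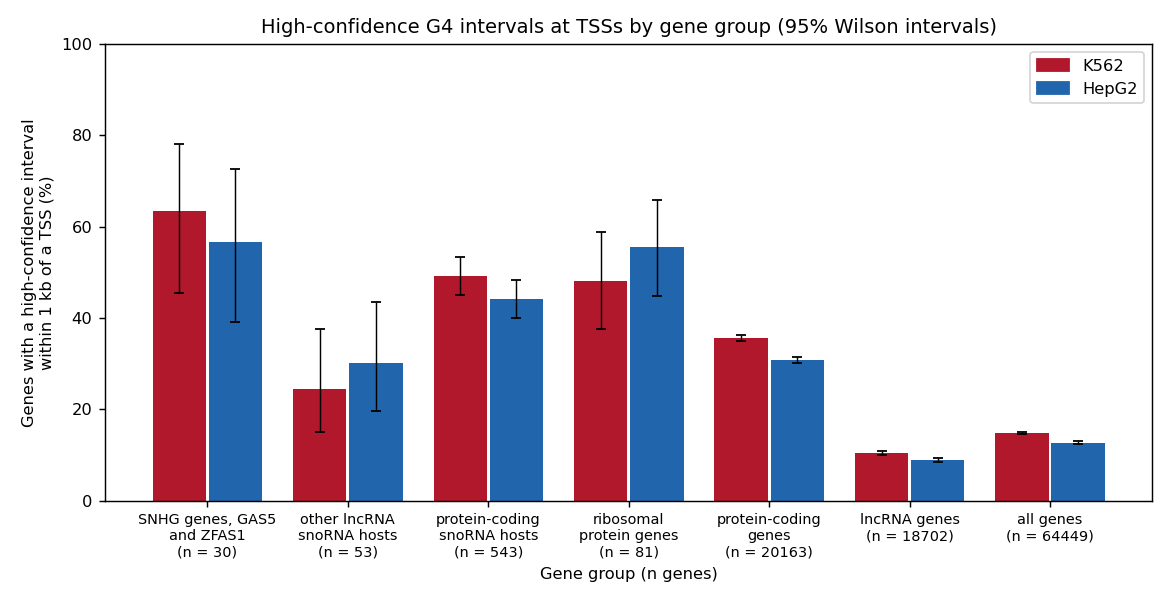
Share of genes (%, vertical axis) with a high-confidence interval within 1 kb of a TSS in K562 (red) and HepG2 (blue), for 7 gene groups (horizontal axis), with 95% Wilson intervals as error bars. The SNHG genes, GAS5 and ZFAS1 stand at 63.3% and 56.7%, above lncRNA genes at 10.5% and 8.87%. Their error bars overlap those of ribosomal protein genes and protein-coding snoRNA hosts in both lines, and those of other lncRNA snoRNA hosts in HepG2. Both groups of snoRNA hosts are counted from RefSeq.

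Genes for the proteins that bind snoRNAs gave a mixed picture. Of the 4 core proteins of box C/D particles, the methyltransferase FBL and NOP56 were high in both lines, SNU13 was lower in K562 and high in HepG2, and NOP58 was none in K562 and lower in HepG2. Of the 4 core proteins of box H/ACA particles, the pseudouridine synthase DKC1 and NHP2 were high in both lines, GAR1 was none in K562 and lower in HepG2, and NOP10 was none in both. Among 9 assembly factors, 4 were high in K562 and 6 in HepG2, with NOLC1, RUVBL1, RUVBL2 and ZNHIT6 high in both, and NUFIP1 and ZNHIT3 in HepG2 alone. The remaining factors were TGS1 (lower in both), NAF1 (lower in K562, none in HepG2) and SHQ1 (none in both).

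The 15 genes that were high in both lines were SNHG1, SNHG4, SNHG5, SNHG8, SNHG9, SNHG10, SNHG12, SNHG19, SNHG21, SNHG29, SNHG30, SNHG31, SNHG32, ZFAS1 and GAS5. Of the 19 genes high in K562, 15 (78.9%) were high in HepG2, beside 66.4% for all genes that were high in K562. Of the 17 genes high in HepG2, 15 (88.2%) were high in K562, beside 77.3% for all genes. Both lists of a line were called on its own replicates with a threshold of its own, so the cells and the making of the lists cannot be told apart in any difference between the lines.

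**Figure D2:**
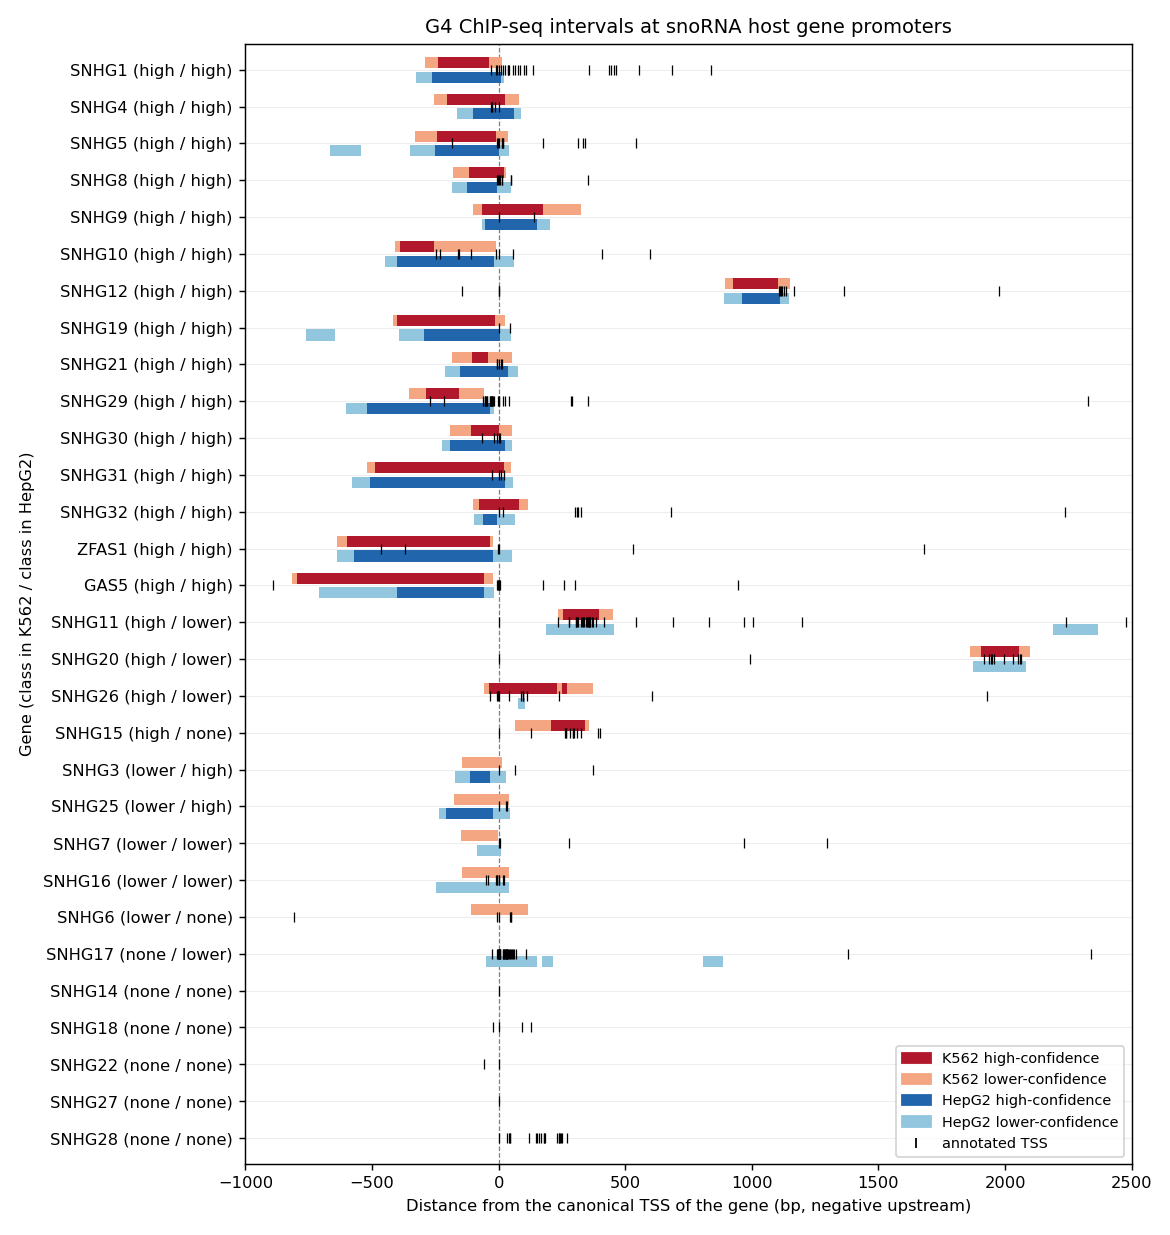
Extent of the intervals of the 4 lists (bars, K562 above and HepG2 below the line of each gene) by distance from the canonical TSS of the gene (bp, negative upstream), with annotated TSSs as ticks and the class in K562 / HepG2 beside each of the 30 genes. At SNHG12, SNHG11, SNHG20 and SNHG15 the high-confidence bars sit downstream of the canonical TSS, over or beside other TSSs, and 5 genes have no bar.

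Among the hosts of box C/D snoRNAs, GAS5, named for its rise in growth-arrested cells, had the widest interval of all 30 genes. RefSeq places 11 snoRNAs inside it. In K562 the interval ran over 739 bp (chr1:173837187-173837925), from -792 to -54 bp relative to the nearest TSS. In HepG2 it covered 345 bp (chr1:173837184-173837528), and 342 bp were common to both lines. The part seen as high in K562 alone was not empty in HepG2, where the lower-confidence interval spanned 688 bp and covered 649 bp of the K562 interval. The centres were at -423 bp in K562 and -223 bp in HepG2, and the GC content was 70.4% and 65.2%. Neither interval covered a TSS of GAS5. The same centres were 20 bp (K562) and 136 bp (HepG2) from a TSS of ZBTB37, which starts on the other strand.

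SNHG1 encloses 9 snoRNAs, among them SNORD22 and SNORD25 to SNORD31, and its intervals lay at the shared start of SNHG1 and SLC3A2, the heavy chain of an amino acid transporter, whose TSS is 82 bp upstream of the canonical SNHG1 TSS. Both touched an annotated UTR. The K562 interval of 200 bp (chr11:62623433-62623632) fell wholly inside the HepG2 interval of 271 bp (chr11:62623386-62623656). Their centres were 107 and 96 bp upstream of an SNHG1 TSS. The GC content was 63.0% and 64.2%, without a motif.

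ZFAS1, host of SNORD12, SNORD12B and SNORD12C, starts head to head with the helicase-like gene ZNFX1. Its intervals were 564 bp in K562 (chr20:47894582-47895145) and 552 bp in HepG2 (chr20:47894606-47895157), with 540 bp in common. Their centres were 55 and 73 bp downstream of the nearest ZFAS1 TSS, but 316 and 298 bp upstream of the canonical ZFAS1 TSS. They were 100 and 82 bp from a TSS of ZNFX1. These intervals had a GC content of 73.6% and 72.5%, and neither held a complete motif.

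SNHG5, which carries SNORD50A and SNORD50B, had nearly the same interval in both lines, 235 bp in K562 (chr6:86388477-86388711) and 252 bp in HepG2, with the K562 interval wholly inside the other. Its centres were 56 and 60 bp downstream of the nearest TSS and 128 and 124 bp upstream of the canonical TSS. The GC content was 68.9% and 68.3%.

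SNHG29, host of SNORD49A, SNORD49B and SNORD65, differed more between the lines. Its K562 interval was 128 bp (chr17:16342065-16342192) and lay inside a HepG2 interval of 483 bp (chr17:16341832-16342314). The shared bases made up 26.5% of the bases in either interval, the lowest share among the 15 genes. Both were centred 8 bp upstream of a TSS, though not of the same one, and the GC content was 66.4% in the K562 interval and 56.3% in the wider HepG2 interval. From the canonical TSS the centres were 223 and 278 bp upstream.

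SNHG32, host of SNORD48 and SNORD52, showed the opposite order, with 158 bp in K562 (chr6:31802308-31802465) around a HepG2 interval of 56 bp (chr6:31802324-31802379). The K562 centre was 1 bp downstream and the HepG2 centre 34 bp upstream of the TSS, and the GC content was 71.5% and 75.0%. SNHG30, host of SNORD7, had 112 bp in K562 (chr17:33895025-33895136) inside 218 bp in HepG2 (chr17:33894942-33895159), centred at 11 bp and -19 bp with a GC content of 67.9% and 64.7%. From the canonical SNHG30 TSS these centres were at -55 and -85 bp. SNHG19, host of SNORD60, had 389 bp in K562 (chr16:2205420-2205808) and 298 bp in HepG2 (chr16:2205403-2205700), of which 281 bp were shared. Their centres were at -208 and -145 bp and their GC content was 65.3% and 59.4%. The ubiquitin ligase gene TRAF7 starts 293 bp upstream of SNHG19 on the other strand, and both SNHG19 intervals reached that start.

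Among the hosts of box H/ACA snoRNAs, SNHG4 (SNORA74A) had intervals of 227 bp in K562 (chr5:138609617-138609843) and 163 bp in HepG2 (chr5:138609719-138609881), with 125 bp in common. The centres were at -61 bp and 7 bp from the nearest TSS, and at -90 and -20 bp from the canonical TSS. The GC content of the intervals was 65.6% and 73.0%. Both contain the SNHG4 motif printed above, whose centre was 6 bp upstream of a TSS. MATR3, which codes for a nuclear matrix protein, starts on the same strand in the same window. SNHG8, host of SNORA24, had 138 bp in K562 (chr4:119199747-119199884) and 116 bp in HepG2 (chr4:119199739-119199854), centred at -43 and -62 bp with a GC content of 68.8% and 72.4%. SNHG9, host of SNORA78, had 238 bp in K562 (chr16:2014832-2015069) and 206 bp in HepG2 (chr16:2014841-2015046), all of it inside the K562 interval. These were centred 54 and 47 bp downstream of the TSS with a GC content of 68.1% and 67.5%. RPS2, the gene of a ribosomal protein, starts 54 bp from SNHG9 on the other strand.

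SNHG12, with SNORA16A, SNORA44, SNORA61 and SNORD99, had its intervals away from its canonical TSS. They were 179 bp in K562 (chr1:28908395-28908573) and 152 bp in HepG2, with centres 1014 and 1036 bp downstream of the canonical TSS. Relative to the nearest of its 13 TSSs the same centres were 94 and 72 bp upstream. The GC content was 69.8% and 69.7%.

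SNHG31 had the intervals with most motifs. The K562 interval of 512 bp (chr2:215674444-215674955) held 3 motifs and the HepG2 interval of 533 bp (chr2:215674427-215674959) held 4, all on the strand of SNHG31. The fourth is the distal motif printed above, which begins at the first base of the HepG2 interval and is cut by the edge of the K562 one. The lower-confidence interval of K562 contained all 4. The centres were 206 and 212 bp upstream of a TSS, and the GC content was 74.0% and 75.0%. SNHG31 starts 526 bp from BARD1, the partner of BRCA1, on the other strand.

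SNHG10 and SNHG21 host scaRNAs, SCARNA13 and SCARNA15. The K562 interval at SNHG10 was 134 bp and fell inside 386 bp in HepG2 (chr14:96000997-96001382). The centres were 76 bp upstream and 20 bp downstream of the nearest TSS, and the GC content was 62.7% and 60.6%. Both centres were upstream of the canonical SNHG10 TSS, by 323 and 210 bp. At SNHG21 the K562 interval was 64 bp (chr15:83419219-83419282) inside 190 bp in HepG2 (chr15:83419172-83419361). These were centred 66 and 50 bp upstream, with a GC content of 64.1% and 58.9%.

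Over the 15 genes, the intervals of the lines always shared bases. The shared part was 69.2% of the bases in either interval at the median, from 26.5% at SNHG29 to 96.1% at SNHG31. The K562 interval was wider at 8 genes and the HepG2 interval at 7, with median widths of 200 and 252 bp.

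**Figure D3:**
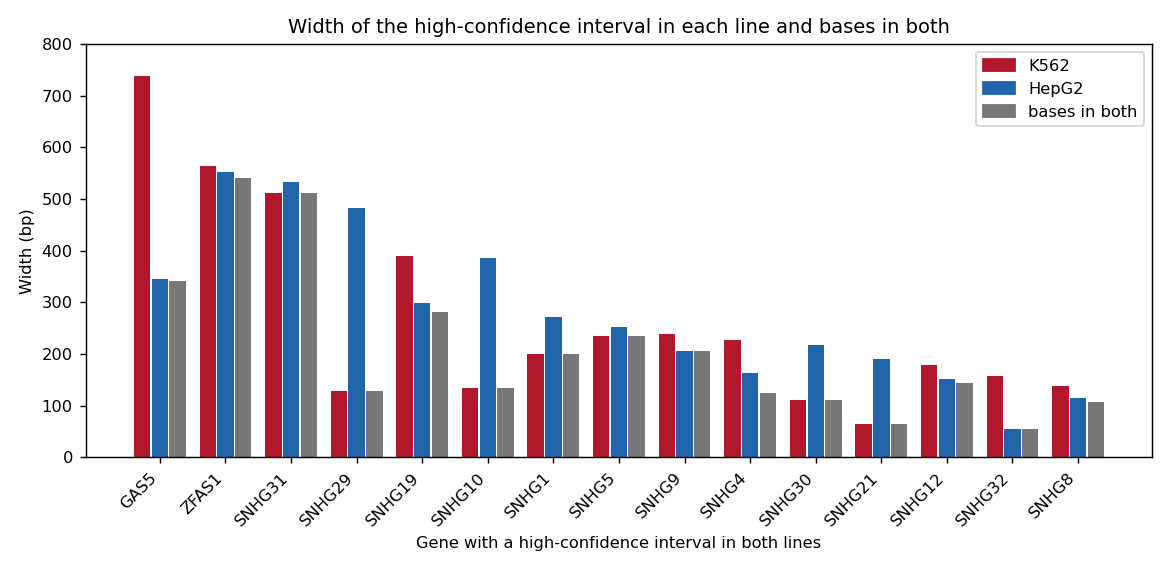
Width in bp (vertical axis) of the high-confidence interval in K562 (red) and HepG2 (blue) and of the bases in both (grey) at the 15 genes that were high in both lines (horizontal axis). GAS5 reaches 739 bp in K562 and 345 bp in HepG2, whereas SNHG29 has 128 bp in K562 and 483 bp in HepG2.

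A high-confidence interval in only 1 of the lines was found at 6 genes. SNHG15, host of SNORA9, had a K562 interval of 134 bp (chr7:45026220-45026353), centred 6 bp downstream of a TSS with a GC content of 70.9%, and was the only one of the 6 without any HepG2 interval. The closest HepG2 interval lay 12667 bp from its TSSs. The centre of the K562 interval was 274 bp downstream of the canonical TSS. SNHG11, host of SNORA60 and SNORA71E, had 143 bp in K562 (chr20:37075239-37075381), and the HepG2 lower-confidence interval of 267 bp contained all of it. This K562 interval was centred 1 bp upstream of a TSS and 324 bp downstream of the canonical TSS, and had a GC content of 72.7%. SNHG20, host of SCARNA16, had 149 bp in K562 (chr17:75084703-75084851), also wholly inside a HepG2 lower-confidence interval. This SNHG20 interval was 1979 bp downstream of the canonical TSS, at other SNHG20 starts that lie beside the start of SEC14L1, and it had a GC content of 61.1%.

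SNHG26, host of SNORD93, had 2 K562 intervals, one of 267 bp (chr7:22893741-22894007) and one of 18 bp (chr7:22894030-22894047). The longer was centred on a TSS with a GC content of 73.0% and the shorter 20 bp downstream of one with 77.8%. The longer holds the SNHG26 motif printed above. HepG2 gave only a lower-confidence interval of 27 bp there, inside the longer K562 interval and without the motif.

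SNHG3 and SNHG25 were high in HepG2 and lower in K562. SNHG3, host of the box H/ACA snoRNAs SNORA73A and SNORA73B, had 81 bp in HepG2 (chr1:28832378-28832458), inside a K562 lower-confidence interval of 158 bp. The centre was 74 bp upstream of SNHG3 and 37 bp upstream of a start of RCC1, the exchange factor of the GTPase Ran, and the GC content was 56.8%. SNHG25, host of SNORD104, had 185 bp in HepG2 (chr17:62223088-62223272), of which 154 bp lay in a K562 lower-confidence interval, and was centred 117 bp upstream of the TSS. Its GC content of 50.3% was the lowest of the 17 HepG2 intervals.

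SNHG7 (SNORA17A and SNORA17B) and SNHG16 (SNORD1A, SNORD1B and SNORD1C) had lower-confidence intervals in both lines. At SNHG7 these were centred 76 bp upstream of the nearest TSS in K562 and 38 bp upstream in HepG2, and at SNHG16 5 and 57 bp upstream. SNHG6, host of SNORD87, had a lower-confidence interval in K562 alone, 2 bp downstream of a TSS. SNHG17, host of SNORA71A to SNORA71D, had 3 of them in HepG2 alone, with the closest centred 3 bp upstream of a TSS.

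No interval of any list was found at SNHG14, SNHG18, SNHG22, SNHG27 and SNHG28, which is 5 of 30 genes (16.7%), where 74.0% of all genes had none. SNHG14 is the long imprinted transcript of the Prader-Willi region that carries the SNORD115 and SNORD116 clusters, and with 111 TSSs and 113915 bp of window it had by far the most sequence searched. The closest interval lay 1902 bp from a TSS of SNHG14, in the HepG2 lower-confidence list. At SNHG28 and SNHG22 the closest intervals of any list were 45041 and 174587 bp away, at SNHG18 (SNORD123) 704315 bp and at SNHG27 2633836 bp. Absence from the lists means that no peak was called in enough replicates, and how many reads covered these promoters is unknown.

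Position was measured from the centre of an interval to the nearest TSS of the gene. The 20 K562 high-confidence intervals at host genes had a median position of -12.5 bp, from -423 to 56 bp, and the 17 HepG2 intervals one of -50 bp, from -223 to 73 bp. Negative values are upstream. For all genes the medians were -46 bp and -52 bp. Centres fell upstream for 12 of 20 intervals in K562 (60%) and 12 of 17 in HepG2 (70.6%), beside 77.3% and 75.1% for all genes. Within 100 bp of a TSS lay 16 of the 20 centres in K562 and 13 of 17 in HepG2, and the interval covered a TSS in 13 and 12 cases. In the annotation of the host gene itself, 12 of the 20 K562 centres lay in an exon, 1 in an intron and 7 outside the gene, and in HepG2 6, 1 and 10. These counts of closeness, covered TSSs and exons were not made for all genes. The host genes have many TSSs, which makes a nearby TSS more likely, so nothing particular to them is read from these counts. The K562 median changed sign, to 29 bp, when each gene was given only the 5′ end of its record as TSS, so no direction is read from it.

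Motifs were present in 4 of 20 K562 intervals (20%, 8.07 to 41.6) and 3 of 17 HepG2 intervals (17.6%, 6.19 to 41.0). Of all high-confidence intervals near a TSS, 34.4% in K562 and 24.4% in HepG2 held one, and both values are inside the Wilson intervals of the host genes. The counts depended on the definition: with stretches of 2 or more G, a motif was found in 16 of the 20 intervals in K562 (80.0%) and in 14 of the 17 in HepG2 (82.4%). Of all high-confidence intervals near a TSS, 90.9% in K562 and 85.2% in HepG2 held one by that definition. The median GC content was 68.9% in K562 and 65.2% in HepG2, against 71.1% and 67.3% for all genes. At ribosomal protein genes, 1 of 45 intervals in K562 and 2 of 48 in HepG2 held a motif with stretches of 3 or more G.

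GC content and motifs were also read in the wider promoter. At SNHG12 and SNHG20 the intervals that set the class are centred outside the sequence used here. At SNHG14, 1 of the genes with none, this sequence surrounds only 1 of 111 TSSs. In the 1 kb either side of the canonical TSS, the 15 genes high in both lines had a median GC content of 53.8% (47.1 to 62.0%), the 6 high in 1 line 52.0%, the 4 with lower-confidence intervals only 54.9% and the 5 with none 63.8% (58.9 to 66.7%). A motif was present in this sequence at 6 of the 15 genes high in both lines and at 4 of the 5 with none. Among all genes it was present at 78.4% of those high in both lines, 29.2% of those with none and 41.3% in all. SNHG18 had the highest GC content, 66.7%, and 6 motifs, without an interval in any list. SNHG8 had the lowest, 47.1%, no motif, and high-confidence intervals in both lines. For GC content, all genes gave medians of 58.4% for genes high in both lines and 44.03% for genes with none.

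**Figure D4:**
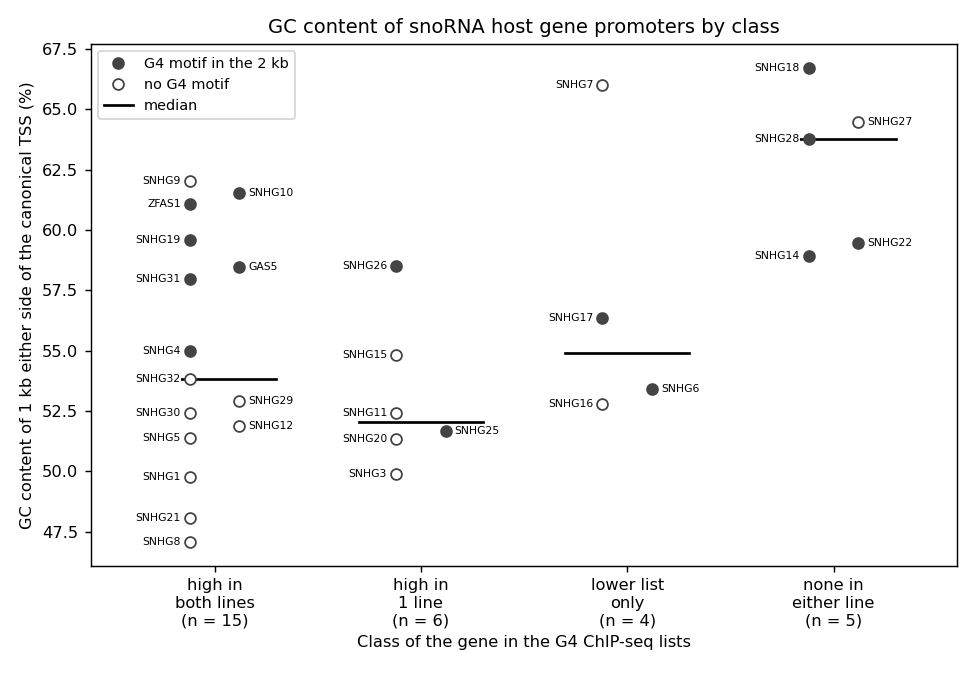
GC content (%, vertical axis, which does not start at 0) of the 1 kb either side of the canonical TSS of each of the 30 genes, by class in the lists (horizontal axis), with filled circles for genes whose sequence holds a G4 motif and lines for the medians. The 5 genes without an interval lie between 58.9 and 66.7%, above the median of 53.8% of the 15 genes high in both lines.

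Some host genes share their promoter with a neighbour, and an interval there can count for both. A protein-coding gene starts on the opposite strand within 1 kb of the canonical TSS at 9 of the 30 genes: SNHG1 (SLC3A2), SNHG9 (RPS2), SNHG10 (GLRX5), SNHG18 (SEMA5A), SNHG19 (TRAF7), SNHG22 (ACAA2), SNHG31 (BARD1), ZFAS1 (ZNFX1) and GAS5 (ZBTB37). Such a neighbour was present at 3610 of 18702 lncRNA genes and at 6981 of all 64449 genes. Of the 9 host genes, 7 were high in each line, all but SNHG18 and SNHG22. Of the 21 without such a neighbour, 12 (57.1%) were high in K562 and 10 (47.6%) in HepG2. Among lncRNA genes in general the shares were 36.9% and 31.2% with such a neighbour and 4.16% and 3.53% without. Among all genes they were 43.9% and 40.0% with one and 11.2% and 9.36% without. Only starts on the opposite strand near the canonical TSS enter these counts. The 21 host genes without one include SNHG3 (RCC1), SNHG4 (MATR3), SNHG5 (ENSG00000271793) and SNHG20 (SEC14L1), which have another protein-coding start in their windows. Not all of the 21 thus have a promoter of their own. In K562 4 of the 20 intervals were centred nearer to a TSS of another gene than to one of the host gene, at SNHG1, SNHG19, SNHG21 and GAS5, and in HepG2 3 of 17, at SNHG1, SNHG3 and GAS5. Here any TSS of the host gene could be the nearest. Measured from the canonical TSS instead, K562 centres at SNHG4, SNHG10, SNHG20 and ZFAS1 were also nearer to another gene. Their distances were 90, 323, 1979 and 316 bp, against 62, 85, 54 and 100 bp to the other gene. In HepG2 the same held at SNHG4 (20 against 7 bp), SNHG10 (210 against 198 bp) and ZFAS1 (298 against 82 bp). The share of such intervals among all genes was not computed, so these counts have no background. Whether the G4 signal goes with the host gene or its neighbour was not tested.

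Host genes and ribosomal protein genes are known for a pyrimidine-rich start, the TOP tract. A C followed by at least 4 C or T, beginning within 5 bp of the canonical TSS on the strand of the gene, was found at 8 of 30 host genes (26.7%), at 69 of 81 ribosomal protein genes (85.2%) and at 17.3% of all genes. The 8 were SNHG7, SNHG8, SNHG12, SNHG17, SNHG25, SNHG29, ZFAS1 and GAS5. By class, the tract was present at 5 of the 15 genes high in both lines and at 1 of the 6 high in 1 line (SNHG25, in HepG2). It was present at 2 of the 4 with lower-confidence intervals only and at 0 of the 5 without an interval. Among all genes it was present at 21.5% of those high in both lines and 15.8% of those with none. The classes are small, and no link between tract and class is read from these counts.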

How the data were processed

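G4 ChIP-seq was measured in K562 and HepG2. After trimming with cutadapt, the authors mapped reads to hg19 with BWA, took out duplicates, called peaks in each replicate with MACS2 and merged replicates with bedtools multiinter. Deposited are the start and end of each interval in bp, without counts or heights, so depth per sample is unknown and no replicate spread or p-value was computed. The input libraries have no list of their own here.

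From there, TSSs came from GENCODE version 44 lifted to GRCh37, a later release than the GENCODE version 19 named in the methods. Overlap asked for 1 bp. The canonical TSS is that of the transcript tagged so. Wilson intervals (95%) cover counting only. The lifted annotation lists few of the snoRNAs of the host genes, so other host genes were counted, after this was seen, from RefSeq gene spans on GRCh38, without strand or exons. With the lifted annotation itself, 47.3% of 364 other protein-coding hosts and 23.5% of 85 other lncRNA hosts were high in K562, and 41.8% and 20.0% in HepG2. Every member was named. Motifs were shown for members with one in a high-confidence interval, and whole intervals for 3 members high in both lines with the most shared bases. The members, gene groups and rules were chosen with earlier results of these data known. Other windows, TSS sets, overlap rules, width minimums and motif definitions were tried. Functions were tested on simulated data. Software was samtools 1.23.1 and Python 3.11.15 with matplotlib 3.10.9, numpy 2.4.6, scipy 1.17.1 and pysam 0.24.0.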

Additional observations from a re-analysis of the deposited data

How the results depend on the processing

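The counts of members with an interval stayed within 1.5 times the reported count under every window, TSS set, overlap rule and width minimum tried: 17 to 19 high in K562, 15 to 17 in HepG2 and 13 to 15 in both, and with the lower-confidence lists 22 to 24 in K562 and 21 to 24 in HepG2. Use of the canonical TSS alone was chosen after seeing the data. The median position in K562 turned from -12.5 to 29 bp with 1 TSS per gene, the 5′ end of its record. The other medians stayed upstream. The number of intervals with a motif depended on its definition: loops of up to 12 bases gave 8 in K562 and 7 in HepG2, and G stretches of 2 or more gave 16 and 14. For loops of up to 12 bases the share of all intervals near a TSS was not computed, so these counts have no background. Motifs touching the interval, the lower-confidence list and intervals of at least 100 bp left the counts at 4 and 3. No paired analysis was possible because the lists merge the replicates of a line and no result comes from a test. Each line has 1 list per threshold, HepG2 with 9 replicates and K562 with 8, and a member without an interval can have one below the thresholds, which these lists cannot show.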
